A study of Mus musculus with 6 samples.

Results

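The replication-dependent histone genes are the clustered copies that encode the core histones H2A, H2B, H3 and H4 and the linker histone H1. They were taken as all genes whose symbol begins with Hist1h, Hist2h, Hist3h or Hist4h, which gave 70 of the 52636 genes in the table. Of these, 6 encode H1, 20 H2A, 19 H2B, 12 H3 and 13 H4. The Hist1 cluster held 56 of them, Hist2 10, Hist3 3 and Hist4 1. The annotation lists 67 as protein-coding and 3 as pseudogenes, Hist1h2aj, Hist1h2al and Hist3h2bb-ps.

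RNA was sequenced in bulk from EpCAM-high cells sorted out of the thoracic esophagus of mice with the genotype Krt5-CreERT2:R26SmoM2/EYFP, called K5:Smo. In this genotype tamoxifen activates Cre in cells that express keratin 5, and Cre releases SmoM2, an active form of the Hedgehog transducer Smoothened. Both groups carry this genotype, and no group without SmoM2 was compared. The labels name a sort on EpCAM and none on EYFP, so cells that did not recombine may be among those sorted. The word epithelial stands in the titles of the untreated libraries and is missing from those with ibuprofen. All 6 libraries were taken 12 weeks after tamoxifen, 3 from the untreated group and 3 from the group given ibuprofen, a cyclooxygenase inhibitor, at 0.6 g per l of drinking fluid. The labels do not say whether each library is a separate animal and give no age or strain, so the tests measure the spread between libraries, which may be technical. Column names carry LD62 in every untreated library and LD65 in every ibuprofen library, and what these codes mark cannot be told apart from treatment. The estimated depth was 6361297 to 8764370 reads per library, and a gene listed at 0 could still reach 0.342 to 0.472 CPM (reads of a gene scaled to a common library total), the level of 3 reads.

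Cells need new histones when DNA is copied, and these genes are switched on together as cells enter S phase and silenced when replication ends. Their mRNAs mostly have no introns and end in a conserved stem-loop rather than a poly(A) tail. The stem-loop binding protein SLBP holds this hairpin through processing, export and translation. In stratified epithelium such as the esophagus, dividing cells lie in the basal layers. In bulk RNA, fewer cells in S phase and less histone RNA per cell cannot be told apart.

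The gene structure of the members followed that description. In the GENCODE M21 annotation of GRCm38, 64 of the 70 genes had a single exon. The Hist1 genes occupied 2 blocks of chromosome 13, with 24 members at chr13:21715763-22043676 and 31 at chr13:23531050-23934851, and the pseudogene Hist1h2al lay apart. The 10 Hist2 genes lay at chr3:96219865-96270132, the 3 Hist3 genes at chr11:58948920-58956830 and Hist4h4 at chr6:136801553-136804415. H2A and H2B genes stood head to head in 14 pairs, with starts 173 to 306 bases apart.

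The stem-loop is shown because it is the element that sets these mRNAs apart from polyadenylated ones. The sense strand of the annotated transcripts was searched for a core of 16 bases, which reads GG, any 2 bases, CTTTT, any base, AG, any 2 bases and CC. The motif was found in 44 of the 67 protein-coding members (65.7%) and in 28 of 21799 other protein-coding genes (0.128%), among them H2afx. Of the 26 members without a match, 13 were protein-coding with at most 25 annotated bases outside the coding part, so the annotation of those genes stops short of where a stem-loop would lie. The 6 distinct forms differed in the stem and in the loop, and 26 members of the classes H1, H2A, H2B and H3 had the same form. All 11 matching H4 genes had a form not found in the other classes. One example of each form follows, 5′ to 3′ as DNA, with the core in capitals and the flanking transcript in lower case.
Hist1h1c, the form of 26 members: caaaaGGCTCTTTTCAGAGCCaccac
Hist1h4d, the form of 7 H4 genes: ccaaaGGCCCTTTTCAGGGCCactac
Hist1h3c, the form of 6 members: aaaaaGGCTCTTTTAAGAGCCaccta
Hist2h4, the form of 2 H4 genes: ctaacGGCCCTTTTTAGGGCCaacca
Hist1h4b, the form of 2 H4 genes: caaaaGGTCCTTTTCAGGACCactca
Hist2h2ac, a form found once: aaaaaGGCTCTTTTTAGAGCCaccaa

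Promoters are shown to complete the description of the genes, and a relation of their motifs to the library levels given later was not tested. RefSeq start sites of GRCm38.p6 were available for 61 of the 70 members, and windows from 250 bases before to 50 after each start were searched on both strands for 3 motifs that do not overlap one another. CCAAT, the box bound by NF-Y, was found in 52 of 61 windows (85.2%) against 37.8% of 26964 windows of other genes. The TATA sequence TATAAA was found in 35 (57.4%) against 14.1%. The octamer ATTTGCAT, bound by the POU factor OCT1, was found in 13 (21.3%) against 1.71%, in 7 of 17 H2A and 6 of 16 H2B windows and in none of the 6 H1, 10 H3 and 12 H4 windows. CCAAT was found in every H1, H2A, H2B and H3 window and in 3 of 12 H4 windows. Windows of head-to-head pairs overlap, so paired genes share some matches, and a match is a run of letters, not a shown binding site. The 150 bases before the start of 1 H2B and 1 H4 gene follow, with motif matches in capitals, both read on the plus strand. ATTGG is CCAAT read on the other strand.
Hist2h2bb, chr3:96269550-96269699: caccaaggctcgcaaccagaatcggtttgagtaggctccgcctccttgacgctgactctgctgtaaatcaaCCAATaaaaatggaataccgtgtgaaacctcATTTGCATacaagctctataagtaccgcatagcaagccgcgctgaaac
Hist1h4d, chr13:23581418-23581567: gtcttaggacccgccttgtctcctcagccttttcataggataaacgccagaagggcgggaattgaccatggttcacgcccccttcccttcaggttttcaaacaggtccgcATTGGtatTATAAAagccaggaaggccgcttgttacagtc

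Histone transcripts were abundant in these cells and varied widely between libraries of the same group, while no difference between untreated and ibuprofen libraries passed the test. The summed level of all 70 members was 4408, 3954 and 2581 CPM in replicates 1, 2 and 3 of the untreated group, and 4997, 4023 and 2075 CPM in those given ibuprofen. The groups overlapped fully, with the highest and the lowest library both in the ibuprofen group and 2.41-fold apart. Group means were 3648 ± 951 CPM without and 3698 ± 1488 CPM with ibuprofen (SD, n = 3 each). In reads, these sums stand for about 28046, 34561 and 22167 untreated and 40797, 30991 and 18186 ibuprofen reads, so counting error was small beside the differences between libraries.

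Members were tested where their CPM reached 1 in at least 3 libraries, which 64 of 70 did. The test was limma on log2(CPM + 1) across all 16684 genes that passed, with Benjamini-Hochberg adjustment over all of them and a call at adjusted p under 0.05. A positive fold change means a higher level with ibuprofen on that log2 scale, each is given with its standard error (SE), and the scale understates the change of genes with low CPM. No histone gene was called in either direction, against 0.521% of all tested genes (50 higher, 0.3%, and 37 lower, 0.222%). That background itself ranged from 4 calls without untreated replicate 1 to 456 without untreated replicate 3. By limma, 0 of 64 members also had an unadjusted p under 0.05, which 17.9% of all tested genes had. None of the 64 had groups that did not overlap, against 22.9% of all tested genes (14.2% higher and 8.73% lower with ibuprofen). The smallest adjusted p among members was 0.308 (limma, Hist1h1c).

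Among the 64 tested members 26 fold changes were positive and 38 negative. Their median was -0.08, with values from -0.51 to 0.53, beside a median of 0.04 over all tested genes. When libraries were scaled by median-of-ratios instead, the split was 18 positive and 46 negative and the median -0.14, beside -0.02 for all tested genes. By class the medians were -0.10 for H1, -0.10 for H2A, 0.05 for H2B, 0.03 for H3 and -0.20 for H4, and those of H2B and H3 became -0.02 under that scaling. Positive fold changes were seen in 1 of 5 H1, 2 of 16 H2A, 12 of 18 H2B, 7 of 12 H3 and 4 of 13 H4 genes.

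The missing calls do not show equal expression, because the intervals were wide. The median 95% interval of a member reached 0.69 to either side on the log2 scale, a factor of 1.62, against 0.39 for all tested genes. The intervals of 61 of 64 members included a 1.5-fold change in at least 1 direction, and those of 14 included a 2-fold change.

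**Figure D1:**
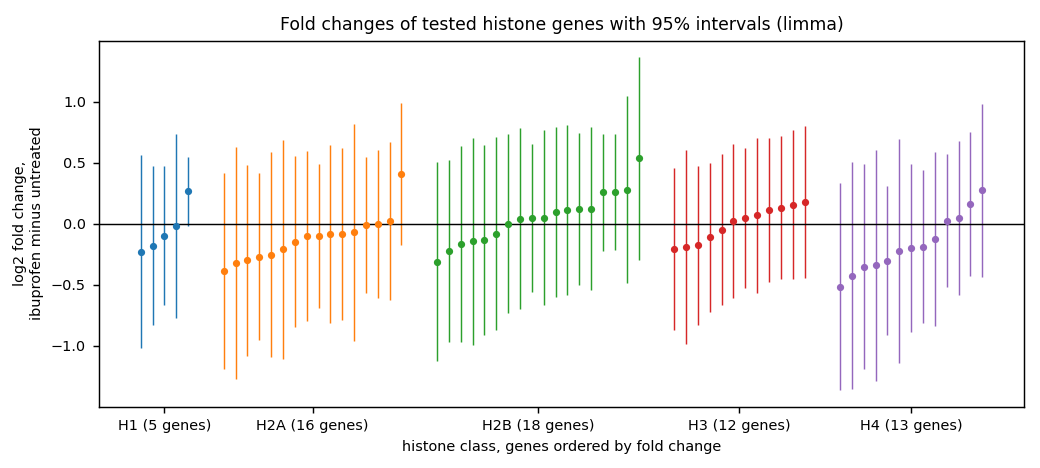
Log2 fold change of each tested histone gene (points, ibuprofen minus untreated on log2(CPM + 1)) with its 95% limma interval (lines), by class and ordered by value. Every interval crosses 0, and most reach beyond 0.5 on at least 1 side.

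Most members had the same high and low libraries. Ibuprofen replicate 3 was the lowest of the 6 libraries for 52 of 64 members (81.2%), against 16.6% of all tested genes, and untreated replicate 3 was the lowest for 9. Ibuprofen replicate 1 was the highest for 37 members and untreated replicate 1 for 24. The level in ibuprofen replicate 3 was a median 0.426 of the mean of replicates 1 and 2 of its group, and the level in untreated replicate 3 a median 0.56 of the same mean in its own group. The corresponding median over all tested genes was 1.01 in each group. In each group 62 of 64 members had a ratio under 1.

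Leaving out single libraries turned the sign of the median. Over all tested genes the median stayed at 0.02 to 0.05 when single libraries were left out. Without ibuprofen replicate 3 the median fold change of the tested members was 0.30, with 60 of 62 positive. In that fit 18 members had an unadjusted p under 0.05 and the smallest adjusted p was 0.149 (limma). The share of all tested genes under 0.05 in that fit is not given here, and with all 6 libraries it was 17.9%. Without untreated replicate 3 the median of the members was -0.32, with 56 of 64 negative. Without ibuprofen replicate 1 it was -0.33, with 55 of 62 negative, and without untreated replicate 1 it was 0.12, with 47 of 63 positive. Without untreated replicate 2 and without ibuprofen replicate 2 it was -0.02 and -0.17. No member was called in any of these fits.

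**Figure D2:**
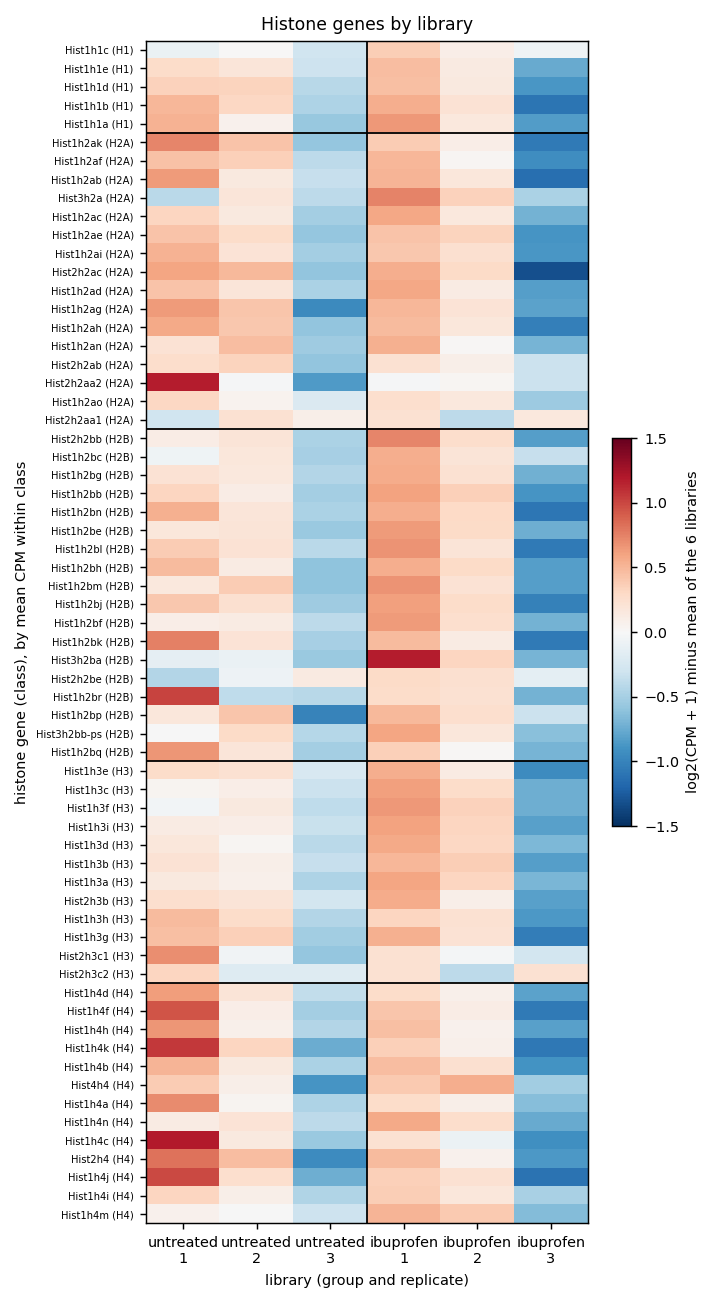
Level of each tested histone gene (rows, by class and mean CPM) in each library (columns), as log2(CPM + 1) minus the mean of the 6 libraries. Red is above and blue below the mean, and the replicate 3 columns of both groups are blue for nearly every gene, the ibuprofen one most.

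The spread between libraries of a group was larger for histone genes than for most tested genes. The residual standard deviation of the fit had a median of 0.595 (log2) over the members and 0.197 over all tested genes, and 59 of 64 members lay above the 90th percentile of all tested genes, 0.397. The highest library of a group was a median 2.01 times the lowest in the untreated group and 2.64 times in the ibuprofen group. For all tested genes these ratios were 1.34 and 1.26.

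**Figure D3:**
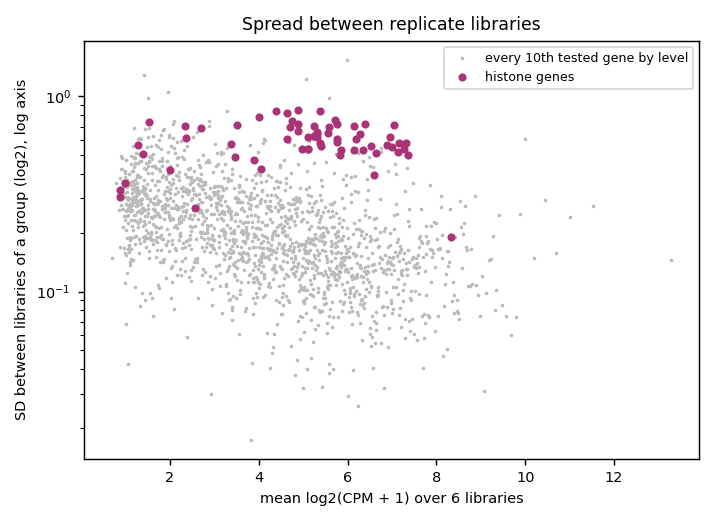
Standard deviation between libraries of a group (log axis, log2 units) against mean log2(CPM + 1), for histone genes (large points) and every 10th other tested gene by level (small points). The histone genes lie along the upper edge, apart from Hist1h1c and a few genes of low level.

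The linker histone H1 binds the DNA between nucleosomes and compacts chromatin. Hist1h1c (chr13:23738808-23740367, H1.2) was at 299, 321 and 259 CPM in replicates 1, 2 and 3 without ibuprofen and 413, 343 and 305 CPM in those with it, the order used for each gene from here. Only ibuprofen replicate 3 fell within the untreated range. Its log2 fold change was 0.26 ± 0.13 (SE), with a 95% interval from -0.02 to 0.55 and an adjusted p of 0.308 (limma). It had the smallest residual standard deviation of the tested members, 0.191 on the log2 scale. The highest library was 1.24 times the lowest in the untreated group and 1.35 times in the ibuprofen group.

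Hist1h1e (H1.4) was at 199, 186 and 133 CPM without ibuprofen and 227, 181 and 96.9 CPM with it. Hist1h1d (H1.3) was at 203, 201 and 120 CPM without ibuprofen and 218, 176 and 86.8 CPM with it. Both had their lowest value in ibuprofen replicate 3 and their highest in ibuprofen replicate 1, with fold changes of -0.10 ± 0.26 and -0.18 ± 0.30. All 5 tested H1 genes were highest in ibuprofen replicate 1. The H1 share of the summed histone CPM was 21.0% to 24.2% in 5 libraries and 27.3% in ibuprofen replicate 3.

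The H2A genes encode a partner of H2B in the outer dimers of the nucleosome. Hist1h2ak (chr13:21753435-21753827) was at 138, 111 and 55.0 CPM without ibuprofen and 108, 88.5 and 39.1 CPM with it, a fold change of -0.39 ± 0.37 with an adjusted p of 0.597 (limma). Hist1h2af was at 97.9, 92.6 and 54.9 CPM without ibuprofen and 102, 73.6 and 37.4 CPM with it. Hist1h2ab was at 110, 77.9 and 55.2 CPM without ibuprofen and 100.4, 79.0 and 31.6 CPM with it. In all 3 the groups overlapped and replicate 3 was the lowest of its group.

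Of the 16 tested H2A genes, 14 had a negative fold change, none of them called. Of the 2 that were not negative, Hist3h2a (chr11:58954685-58956830) had the larger value. It was at 41.7, 63.3 and 42.2 CPM without ibuprofen and 93.7, 70.9 and 39.7 CPM with it, a fold change of 0.41 ± 0.26 with an adjusted p of 0.43 (limma). Ibuprofen replicates 1 and 2 were above every untreated library and ibuprofen replicate 3 below them.

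The H2B genes, whose products complete the outer dimers, had 12 positive and 6 negative fold changes, again without a call. Hist2h2bb was at 134, 141 and 88.6 CPM without ibuprofen and 206, 148 and 69.5 CPM with it. Hist1h2bc was at 91.1, 107 and 66.8 CPM without ibuprofen and 139, 109 and 74.7 CPM with it, and Hist1h2bg at 93.8, 90.3 and 59.4 against 119, 95.1 and 48.8 CPM. Ibuprofen replicate 1 was the highest library for these 3 genes and for 15 of the 18 tested H2B genes.

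The most positive fold change of any member was that of Hist3h2ba (chr11:58948920-58949533), at 4.90, 5.05 and 3.40 CPM without ibuprofen and 13.6, 7.14 and 3.00 CPM with it. It was 0.53 ± 0.38, with a 95% interval from -0.29 to 1.36 and an adjusted p of 0.467 (limma). Hist1h2bp was at 4.75, 5.85 and 1.55 CPM without ibuprofen and 6.15, 5.10 and 3.1 CPM with it, a fold change of 0.28 ± 0.35. In both genes the groups overlapped.

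H3 pairs with H4 in the tetramer at the centre of the nucleosome. Hist1h3e was at 172, 166 and 119 CPM without ibuprofen and 207, 154 and 73.3 CPM with it. Hist1h3c was at 144, 150 and 112 CPM without ibuprofen and 213, 169 and 83.7 CPM with it. Hist1h3f was at 124, 142 and 98.2 CPM without ibuprofen and 202, 163 and 76.3 CPM with it. In these genes ibuprofen replicate 1 lay above every untreated library and ibuprofen replicate 3 below every one, and the fold changes were -0.18 ± 0.30, 0.11 ± 0.27 and 0.18 ± 0.28. The untreated libraries of H3 genes lay closer together, with a median high-to-low ratio of 1.495, than those of H4 genes, with 2.31, a difference that was not tested.

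The H4 class median was -0.20, and the 3 genes with the most negative values included Hist1h4c and Hist1h4k. Hist1h4c (chr13:23697635-23698454) was at 59.9, 28.5 and 17.1 CPM without ibuprofen and 30.4, 24.1 and 13.1 CPM with it. Its fold change was -0.51 ± 0.38, with a 95% interval from -1.36 to 0.33 and an adjusted p of 0.494 (limma). Hist1h4k was at 86.6, 51.4 and 24.0 CPM without ibuprofen and 52.8, 43.1 and 18.9 CPM with it, a fold change of -0.43 ± 0.42.

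Untreated replicate 1 stood above the other 5 libraries in these genes, and it was the highest library for 9 of 13 H4 genes. Hist1h4d was at 236, 175 and 118 CPM without ibuprofen and 185, 160 and 87.0 CPM with it. Hist1h4f was at 99.1, 54.8 and 35.6 CPM without ibuprofen and 68.7, 55.6 and 24.0 CPM with it, and Hist1h4h at 84.5, 55.7 and 38.9 against 72.9, 55.7 and 29.6 CPM. The H4 share of the summed histone CPM was 19.7% in untreated replicate 1 and 13.8% to 15.2% in the other 5 libraries. The ratio of summed H4 to summed H3 CPM was 0.837, 0.592 and 0.515 untreated and 0.506, 0.531 and 0.556 with ibuprofen. Untreated replicates 1 and 2 were above every ibuprofen library and untreated replicate 3 was not. Without untreated replicate 1 the H4 median fold change was 0.10 in place of -0.20, and the medians of the other classes were also higher, at 0.02 for H1, 0.06 for H2A, 0.18 for H2B and 0.15 for H3.

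**Figure D4:**
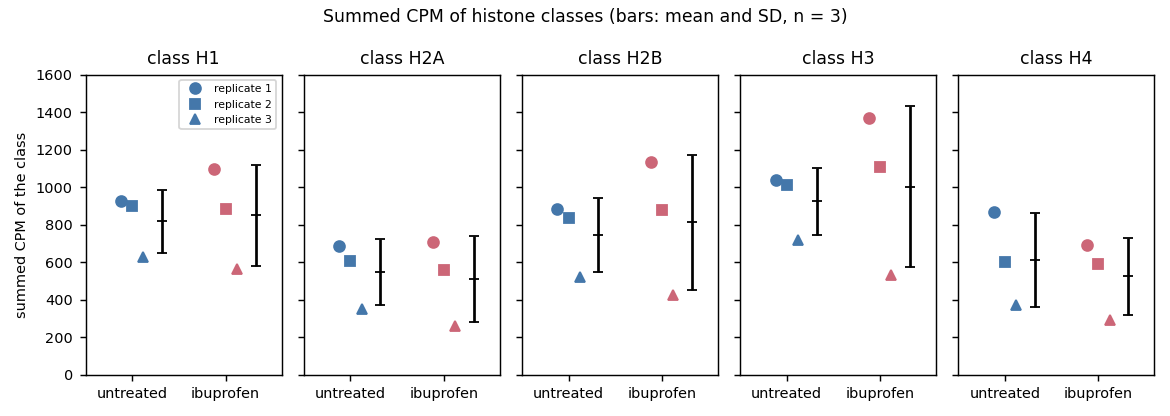
Summed CPM of each histone class in the 6 libraries (symbols by replicate), with the mean and SD of each group (bars, n = 3). In every class replicate 3 is the lowest library of its group, and the group means differ by less than the SDs.

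Summed by class, the means with and without ibuprofen differed by less than the pooled standard deviation in all 5 classes. The untreated means were 818 ± 167 CPM for H1, 548 ± 178 for H2A, 746 ± 198 for H2B, 924 ± 178 for H3 and 613 ± 250 for H4 (SD, n = 3). The ibuprofen means were 849 ± 268 CPM for H1, 510 ± 228 for H2A, 813 ± 360 for H2B, 1002 ± 429 for H3 and 525 ± 206 for H4 (SD, n = 3). By cluster, the sums were 3997, 3546 and 2336 CPM without ibuprofen and 4452, 3603 and 1866 CPM with it for Hist1, and 319, 302 and 181 against 391, 290 and 143 CPM for Hist2. For Hist3 they were 48.2, 70.5 and 46.5 without ibuprofen and 110, 79.9 and 43.4 CPM with it. The single gene Hist4h4 was at 44.0, 35.7 and 17.7 CPM without ibuprofen and 44.2, 49.5 and 23.0 CPM with it, and was the one tested member highest in ibuprofen replicate 2. The median fold changes of the clusters were -0.10 for Hist1, -0.03 for Hist2, 0.41 for the 3 tested genes of Hist3 and 0.27 for Hist4h4, with no member called.

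The tested genes nearest the filter did not share one pattern. Hist2h2aa1, just above the filter, was at 0.50, 1.15 and 0.95 CPM without ibuprofen and 1.15, 0.40 and 1.05 CPM with it. Hist2h3c2 was at 1.30, 0.60 and 0.60 CPM without ibuprofen and 1.15, 0.40 and 1.15 CPM with it. These were the 2 tested members whose level in ibuprofen replicate 3 exceeded the mean of replicates 1 and 2, by ratios of 1.35 and 1.48, and each value rests on about 10 reads or fewer. The next members up had the common order, with ibuprofen replicate 3 lowest. Hist1h2ao was at 1.45, 1.05 and 0.70 CPM without ibuprofen and 1.35, 1.20 and 0.35 CPM with it, and Hist1h2bq at 2.85, 1.75 and 0.70 against 2.10, 1.45 and 0.50 CPM. Both were named after their values were seen.

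Just below the filter, Hist1h1t, the testis form of H1, was at 0.20, 0.25 and 0.25 CPM without ibuprofen and 1.15, 1.30 and 0.70 CPM with it. The groups did not overlap, but the untreated values lay under the level of 3 reads and the gene was not tested. Hist1h2ap was at 1.15, 0.95 and 0.25 CPM without ibuprofen and 0.40, 0.30 and 0.25 CPM with it. The other untested members were the pseudogenes Hist1h2aj and Hist1h2al, at 0.15 to 0.80 CPM, and the testis-expressed pair Hist1h2aa and Hist1h2ba, at 0 to 0.20 CPM. No member was listed at 0 in all 6 libraries.

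Near-identical coding sequences limit how far single histone genes can be read. Of all 75-base stretches of a member's longest annotated transcript, a median 57.8% occurred in no other annotated gene, with 8 members under 10% and 19 at 80% or more. Hist2h2aa2 and Hist2h3c1 had 0%, so no stretch of that length could be assigned to them alone. The Hist2h3c1 transcript has 1825 bases, 543 of them coding, and the annotated gene Gm20634 overlaps it on the same strand. The part of that overlap in its 0% was not tested. How the authors counted reads with several matches is not given in the sources used here. Among genes described above the share was 98.5% for Hist1h1d, 96.3% for Hist1h4d, 93.3% for Hist1h1c, 86.1% for Hist3h2ba and 83.1% for Hist1h4c. It was 31.9% for Hist1h4k, 29.5% for Hist1h2af, 11.1% for Hist2h2aa1, 6.9% for Hist1h2ao and 4.07% for Hist1h2bq. Another annotated gene overlapped 26 members, in 7 cases on the same strand, as Hist1h1e and Hist1h2be do, and whether counting used strand is not given. Overlapping and antisense reads therefore cannot be separated for those 26.

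Whether library preparation favoured polyadenylated RNA is also not given, which bears on mRNAs that normally lack a tail. Annotated transcripts ran at least 500 bases past the stem-loop core in 12 tested members, among them Hist1h1c, Hist1h1d, Hist1h1e, Hist1h4d, Hist3h2a and Hist4h4. In ibuprofen replicate 3 these 12 were at a median 0.466 of the mean of replicates 1 and 2, with a range of 0.410 to 0.808. The 30 tested members with less than 500 bases past the core were at a median 0.418, with a range of 0.275 to 1.48. The median ratios in the untreated group were 0.59 and 0.575.

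The factors that make and protect histone mRNA varied less between libraries than the mRNAs did: the list mean lay between -0.06 and 0.12 of its average over libraries (log2). The list of 18 symbols for transcription and 3′ processing of histone mRNA had 16 tested genes, the other 2 symbols being absent from the table. None was called, and 2 of 16 had an unadjusted p under 0.05. Over all tested genes 17.9% did, the share to set beside each list below. The median fold change was -0.08, with 5 positive and 11 negative. Slbp, the stem-loop binding protein, was at 45.1, 50.9 and 38.9 CPM without ibuprofen and 43.6, 47.8 and 31.6 CPM with it, a fold change of -0.14 ± 0.16 with an adjusted p of 0.667 (limma). Its lowest library was ibuprofen replicate 3, as for the histones.

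Npat, the coactivator that Cyclin E/CDK2 acts on to start histone transcription, was at 48.7, 64.0 and 61.1 CPM without ibuprofen and 63.0, 65.3 and 58.2 CPM with it, with overlapping groups (0.11 ± 0.13). Casp8ap2 (FLASH), a part of the histone 3′ processing machinery, was at 23.9, 33.1 and 29.3 CPM without ibuprofen and 24.3, 27.0 and 22.6 CPM with it (-0.21 ± 0.15). The smallest p-values of the list belonged to Ncbp1, a subunit of the nuclear cap-binding complex, and Sympk, a scaffold of the cleavage complex. Their fold changes were -0.29 ± 0.11 and -0.26 ± 0.11, with adjusted p of 0.211 and 0.24 (limma). Both had groups that did not overlap, with every ibuprofen library below every untreated one. That was seen in 2 of the 16 tested genes of the list (12.5%), against 22.9% of all tested genes (8.73% lower with ibuprofen).

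Replication-independent variants can replace the canonical histones outside S phase. The list by that name also holds H2afx, whose transcript has the stem-loop motif, so not every gene in it is set apart from the members. Of 17 listed variants 12 were tested and none was called, with 1 at an unadjusted p under 0.05, 5 positive and 7 negative fold changes and a median of -0.03. H3f3b, one of the genes for H3.3, was at 688, 607 and 534 CPM without ibuprofen and 622, 606 and 547 CPM with it (-0.04 ± 0.12). H3f3a, the other, was at 159, 130 and 114 CPM without ibuprofen and 132, 135 and 126 CPM with it (-0.02 ± 0.12). In both the lowest of the 6 libraries was untreated replicate 3, not ibuprofen replicate 3.

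H2afz, which encodes H2A.Z, was at 142, 162 and 143 CPM without ibuprofen and 174, 166 and 105 CPM with it (-0.04 ± 0.17). H2afx encodes H2A.X, the variant phosphorylated at DNA breaks, and its annotated transcript holds the stem-loop motif. It was at 131, 112 and 82.3 CPM without ibuprofen and 146, 115 and 54.8 CPM with it (-0.13 ± 0.29), and its libraries stood in the same order as the summed histone members. H2afy, which encodes macroH2A1, was at 167, 157 and 145 CPM without ibuprofen and 127, 124 and 109 CPM with it. It was the 1 of 12 tested variants (8.33%) whose groups did not overlap, against 22.9% of all tested genes. Its fold change of -0.38 ± 0.11 had an adjusted p of 0.125 (limma). H2afy2, which encodes macroH2A2, had a fold change of -0.39 ± 0.18 and an adjusted p of 0.293 (limma).

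Histone chaperones bind and carry histones, some of them to the replication fork. Of 24 listed symbols 23 were tested and none was called, with 2 at an unadjusted p under 0.05, 7 positive and 16 negative and a median of -0.12. Asf1b, which hands H3–H4 dimers on during replication, was at 22.3, 23.7 and 14.6 CPM without ibuprofen and 21.0, 17.1 and 6.995 CPM with it (-0.50 ± 0.32). Chaf1a, the large subunit of the assembly factor CAF-1, was at 24.98, 29.9 and 16.3 CPM without ibuprofen and 23.4, 18.4 and 14.4 CPM with it (-0.31 ± 0.23). In both, replicate 3 was the lowest of its group and the groups overlapped. Ipo4, an importin that carries histones into the nucleus, and Cabin1, a subunit of the HIRA complex, had the smallest p-values, with fold changes of -0.35 ± 0.12 and -0.27 ± 0.12 and adjusted p of 0.17 and 0.25 (limma).

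The list of 43 genes for DNA replication and S phase had 39 negative and 4 positive fold changes, a median of -0.28 and no call. Over all tested genes 7284 were negative and 9400 positive, with a median of 0.04. In the list 12 genes had an unadjusted p under 0.05, which 17.9% of all tested genes had. The groups did not overlap in 1 of the 43 (2.33%), against 22.9% of all tested genes. Mcm2, a subunit of the replicative helicase, was at 49.8, 45.9 and 19.3 CPM without ibuprofen and 25.6, 22.6 and 12.8 CPM with it. Its fold change was -0.83 ± 0.33 with an adjusted p of 0.228 (limma), and untreated replicate 3 lay among the ibuprofen libraries. Pcna, the sliding clamp, was at 110, 113 and 74.3 CPM without ibuprofen and 92.7, 102 and 69.3 CPM with it (-0.16 ± 0.18). Rrm2, a subunit of ribonucleotide reductase, was at 41.5, 47.1 and 25.9 CPM without ibuprofen and 43.9, 39.1 and 17.3 CPM with it (-0.25 ± 0.31).

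Slc29a1, a nucleoside transporter, and Ung, the uracil DNA glycosylase, had the smallest p-values of that list. Their fold changes were -0.86 ± 0.27 and -0.99 ± 0.35, with adjusted p of 0.152 and 0.19 (limma). The list of 20 genes for mitosis and G2/M had 17 negative and 3 positive fold changes and a median of -0.16, with 1 gene at an unadjusted p under 0.05 and none called. Over all 5 pathway lists the count of calls, 0, became 5 when untreated replicate 3 was left out. The count over all tested genes went from 87 to 456 in that fit. The G2/M list's smallest p-values were those of Cdc20, an activator of the anaphase-promoting complex (-0.48 ± 0.19, adjusted p of 0.231, limma), and Bub1b, a checkpoint kinase (-0.43 ± 0.25). Mki67, the proliferation marker, was at 700, 1063 and 1117 CPM without ibuprofen and 1336, 1106 and 602 CPM with it (0.03 ± 0.26). Its untreated order was the reverse of that of the summed histones.

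**Figure D5:**
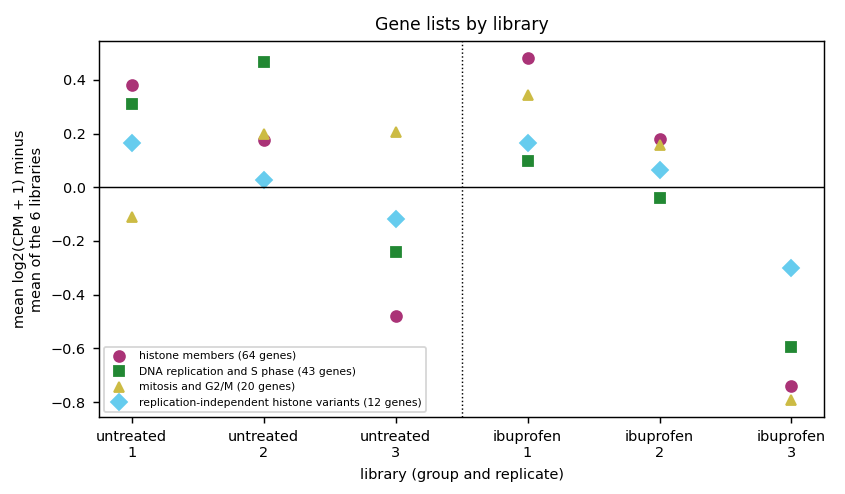
Mean over each list's tested genes of log2(CPM + 1) minus the mean of the 6 libraries, for the histone genes, DNA replication and S phase, mitosis and G2/M, and replication-independent variants, in each library. All 4 lists are lowest in ibuprofen replicate 3, and they part in untreated replicates 1 and 3. The variants include H2afx, whose transcript has the stem-loop motif.

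Averaged over each list, the libraries stood apart in a like way for histones and S-phase genes in part of the data only. The mean deviation of the histone genes from their mean over libraries was 0.38, 0.18 and -0.48 (log2) untreated and 0.48, 0.18 and -0.74 with ibuprofen. For the S-phase list it was 0.31, 0.47 and -0.24 untreated and 0.10, -0.04 and -0.59 with ibuprofen. Both were below their mean in replicate 3 of each group, and the S-phase list lay lower than the histones in ibuprofen replicates 1 and 2. The G2/M list was at -0.11, 0.20 and 0.21 untreated and 0.34, 0.16 and -0.79 with ibuprofen, so untreated replicate 3 was low in histone and S-phase genes and not in G2/M genes. The variants were at 0.16, 0.03 and -0.12 untreated and 0.17, 0.06 and -0.30 with ibuprofen. Of the 12 tested variants, 7 were lowest in ibuprofen replicate 3. Among them H2afx and Cenpa were at 54.8 and 42.6 CPM there, against 146 and 91.0 CPM in ibuprofen replicate 1. The list was not averaged without these genes.

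Other properties of the libraries moved beside these values, and their part in the results was not tested. The rank correlation of a gene's GC content with its deviation in a library, over 16646 genes, was 0.47, 0.19 and -0.28 untreated and -0.25, -0.32 and -0.09 with ibuprofen. Tested members had a median GC content of 57.5%, beside 49.3% over tested genes. By class it was 54.5% for H1, 64.2% for H2A, 55.9% for H2B, 59.9% for H3 and 56.2% for H4. Untreated replicate 1 had the most positive GC relation over all genes and was the library in which the H4 genes stood highest. Among the 64 tested members that correlation was 0.14 in untreated replicate 1. With a GC correction the median fold change of the members was 0.01 and no member was called. The class medians were then -0.11 for H1, -0.04 for H2A, 0.10 for H2B, 0.10 for H3 and -0.13 for H4. Keratinocyte markers, 8 of 8 tested, summed to 12274 to 14152 CPM without ibuprofen and 10005 to 11369 CPM with it, so the groups did not overlap, and all 8 fold changes were negative with none called. Fibroblast markers, 7 of 8 tested, summed to 332 to 372 CPM in 5 libraries and 539 CPM in ibuprofen replicate 1, the library with the highest histone sum. Most of that sum was Fbln1, at 258 to 393 CPM. Ibuprofen replicate 1 was the highest library for 6 of the 7, with Col1a1, Col1a2 and Col3a1 at 29.0, 15.7 and 32.2 CPM. The other 1, Dcn, was highest in ibuprofen replicate 2, at 88.1 CPM. Immune markers, 1 of 8 tested, summed to 4.95 to 8.40 CPM without ibuprofen and 9.15 to 11.0 CPM with it, with Adgre1 at 0 in every library. Endothelial markers, 2 of 5 tested, summed to 14.9 to 16.5 CPM without and 17.0 to 20.1 CPM with ibuprofen. In both lists the groups did not overlap. Muscle markers, 3 of 6 tested, summed to 9.29 to 14.7 CPM without and 8.30 to 10.6 CPM with ibuprofen, with Myh4 at 0 in every library.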

How the data were processed

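The authors deposited CPM per gene, as the file headers name the columns. Per the submitters' processing notes, tools were Cell Ranger 3.1.0, edgeR, HTSeq and STAR 2.5.3a, without roles, and builds GRCm38 and mm10. The annotation release is not given in the sources used here. The values lie on steps of whole reads rounded up, from which depth was estimated, and at least 99.82% of values above 0 were returned by this reading. The floors of 3 reads cover counting error only, and the 95% intervals rest on the spread between libraries.

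Genes with CPM of at least 1 in 3 of 6 libraries entered limma 3.58.1 (R 4.3.3, lmFit and eBayes with trend) on log2(CPM + 1), a pseudocount of 1, without covariates, two-sided. The fit was tested on simulated data in which every gene had the same spread beyond counting error. That test does not show what would be called at the larger spread of the histone genes. Columns not used numbered 0. The fold changes were computed here, not by the authors. Members, gene lists and tests were chosen with earlier results of these data known. Named are called members, the 3 members of highest mean CPM per class, the 3 fold changes at either extreme, 2 genes on each side of the filter, called genes and the 2 smallest p-values per pathway list, and 13 fixed genes.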

Additional observations from a re-analysis of the deposited data

How the results depend on the processing

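No histone member was called under any of the 17 alternatives fitted across all genes (16 planned and 1, the replicate block with GC correction, chosen after seeing the data), where the smallest adjusted p ran from 0.066 to 0.488. The number of called genes over the whole table, 87, was 52 without a filter, 2462 with library weights, 434 with the replicate block and 270 with the block and GC correction, and 4 to 456 when single libraries were left out (4 and 5 without untreated replicates 1 and 2, 456 without untreated replicate 3, 23 and 44 without ibuprofen replicates 1 and 3). The 5 pathway lists had 16, 12, 23, 43 and 20 tested genes. Their calls, 0 at first, were 19 with library weights, 6 with the replicate block and 9 with the block and GC correction. They were 0 to 5 when single libraries were left out, the 5 without untreated replicate 3. In the same 4 fits the counts over the whole table were 2462, 434, 270 and 456, so the list calls appeared where calls over all genes also rose. The cause was not tested. After the mean of its group was subtracted from each gene, same-numbered libraries of the groups correlated at 0.000173, 0.0798 and 0.153 over 16684 genes. Differently numbered libraries of the groups correlated at -0.144 to 0.0973. With 3 libraries per group these values cannot decide whether the replicate numbers pair the samples. With the block, 6 members had an unadjusted p under 0.05 and the smallest adjusted p was 0.0915 (limma). The share of all tested genes under 0.05 with the block is not given here, and without it the share was 17.9%. Leaving out single libraries moved the median fold change of the members from -0.33 to 0.30 and the difference in their summed CPM, 51 with ibuprofen minus untreated, from -599 to 862. The number of libraries, 3 per group, limits the precision, and members at a few reads are also limited by depth.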
